A study of Mus musculus with 12 samples.

Results

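Fibronectin (Fn1) and 8 matricellular glycoproteins (Thbs1, Thbs2, Postn, Tnc, Sparc, Spp1, Vcan and Tgfbi) were followed across 4 stages of guided cardiogenesis from embryonic stem cells. Members were the probe sets whose platform annotation gives exactly the gene's symbol and no other, and each gene was read by its brightest probe set, judged by the mean of the 12 arrays, with its remaining probe sets as a check. Of the 9 genes, 8 were measured in this way, out of 18193 genes that the annotation names alone. No probe set in the annotation used here carries the symbol Spp1 (osteopontin), which was not analysed here. The 8 genes have 25 probe sets of 45037, of which 19 passed the filter on low signals, and the brightest probe set of each of the 8 genes was among these 19.

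Fibronectin is a large adhesive glycoprotein that cells assemble into fibrils through integrins, and it is a main component of the matrix that mesoderm and heart precursors cross in the embryo. Matricellular proteins are secreted into the same matrix but act mainly as modulators: they bind collagens, growth factors, proteases and cell surface receptors and alter adhesion rather than bear load. In the heart they are known for high expression in the cushions and the interstitium during development, low expression in the healthy adult muscle and renewed expression after injury.

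RNA came from murine CGR8 embryonic stem cells, a feeder-free line, so every array represents the same cell line, and was hybridized to 12 Affymetrix mouse genome arrays, 3 for each stage. ES-LIF(+) cells were kept with leukemia inhibitory factor (LIF), the cytokine that holds mouse stem cells undifferentiated, and ES-LIF(-) cells had spent 48 h without it. Cardiopoietic cells (CP) and cardiomyocytes (CM) both came from cells stimulated with a cocktail of BMP, TGFβ, FGF, EGF, VEGF, IGF1 and the interleukins IL3, IL6 and IL13, and both were purified on Percoll gradients, of lower density for CP by the methods. CP were kept for 5 days in 3% fetal bovine serum with 30 ng/ml TNFα, and CM for 9 days in 20% serum. Days, serum, TNFα and gradient density therefore cannot be told apart in a comparison of CM with CP. In a comparison of CP or CM with the stem cell stages, the cocktail, days, serum and gradient purification cannot be told apart either, nor TNFα for CP. The methods call the 3 arrays of a stage biological replicates, sampled independently.

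Values are MAS5 signals on a linear scale, scaled array by array, and the median signal of all probe sets was 128.9 to 136.3 on CP arrays, 127.7 to 144.1 on CM arrays and 101 to 110.9 on the ES-LIF(-) and ES-LIF(+) arrays. Differences are given as log2(signal + 16) with the standard error of limma's moderated model of all 12 arrays, and folds are those of signal + 16. A gene was called higher or lower when its adjusted p was under 0.05 and its change exceeded 1.5-fold. With 3 arrays a stage, the number of arrays limits the precision of every value. Of the marker lists, all 8 cardiomyocyte genes were higher in CM than in ES-LIF(+), with a summed signal of 119817 to 133999 in CM, against 617.3 to 759.3 in ES-LIF(+), and 3 of 8 were higher in CP (summed signal 1934 to 2065.3). All 8 pluripotency genes stayed above the array median on every CP and CM array, although 6 were lower in CP and 8 in CM than in ES-LIF(+). Against ES-LIF(-), 4 of the 8 were called higher and 2 lower in CP, and 1 higher and 7 lower in CM. Of the 6 cardiac progenitor genes, 3 were called higher and 0 lower in CP than in ES-LIF(+), namely Hand2 (5.72), Isl1 (2.19) and Gata4 (1.45), and 6 were called higher in CM. The cardiac transcription factor Nkx2-5, of the same list, was not called in CP (93.5 ± 29.1 in CP, against 104 ± 26.6 in ES-LIF(+), SD, n = 3 each).

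All 8 measured genes were called higher in CP than in ES-LIF(+), and all 8 were called higher in CM than in ES-LIF(+). Of all 26083 tested probe sets, 19.3% were called higher and 11.6% lower in CP, and 26.2% higher and 21.6% lower in CM. The median log2 difference of the 8 genes was 3.39 in CP, against 0.09 over all tested probe sets, and 3.02 in CM, against 0.10. These counts and medians include Thbs2, Postn and Tnc, which entered the tests through CP and CM, and are a description. In CP the remaining genes differed by 1.66 (Fn1), 3.90 (Thbs1), 2.89 (Sparc), 0.72 (Vcan) and 0.94 (Tgfbi). In CM they differed by 1.42, 4.42, 2.80, 0.82 and 1.59 in the same order. Both comparisons use the same ES-LIF(+) arrays. After removal of LIF alone, 1 gene of the 8 (Thbs2) was called higher and 1 (Tgfbi) lower in ES-LIF(-) than in ES-LIF(+), where 3.19% of all probe sets were called higher and 3.77% lower. Fn1 (-0.58) and Vcan (0.46) had an adjusted p under 0.05 but changed by less than 1.5-fold. Between CM and CP, 2 genes (Tnc and Tgfbi) were called higher in CM and 1 (Thbs2) lower, where 8.7% of all probe sets were called higher and 9.47% lower. All 8 changed across the 4 stages by limma's moderated F test, which 68.7% of all probe sets passed.

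Fn1, Thbs1, Sparc, Vcan and Tgfbi were above the array median on all 12 arrays. Thbs2 and Postn were above it only on CP and CM arrays, so they entered the tests through the stages in which they are high, and their calls are given as a description. Tnc was above the median on all CP and CM arrays, on 1 ES-LIF(-) array and on 1 ES-LIF(+) array, so it too entered the tests through CP and CM, and its calls are likewise a description. Against ES-LIF(-), 7 of the 8 genes were called higher in CP, where 20.4% of all probe sets were called higher and 12.7% lower, and 7 in CM, where 26.1% were called higher and 21.7% lower, with Vcan, by its brightest probe set, the exception in both.

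**Figure D1:**
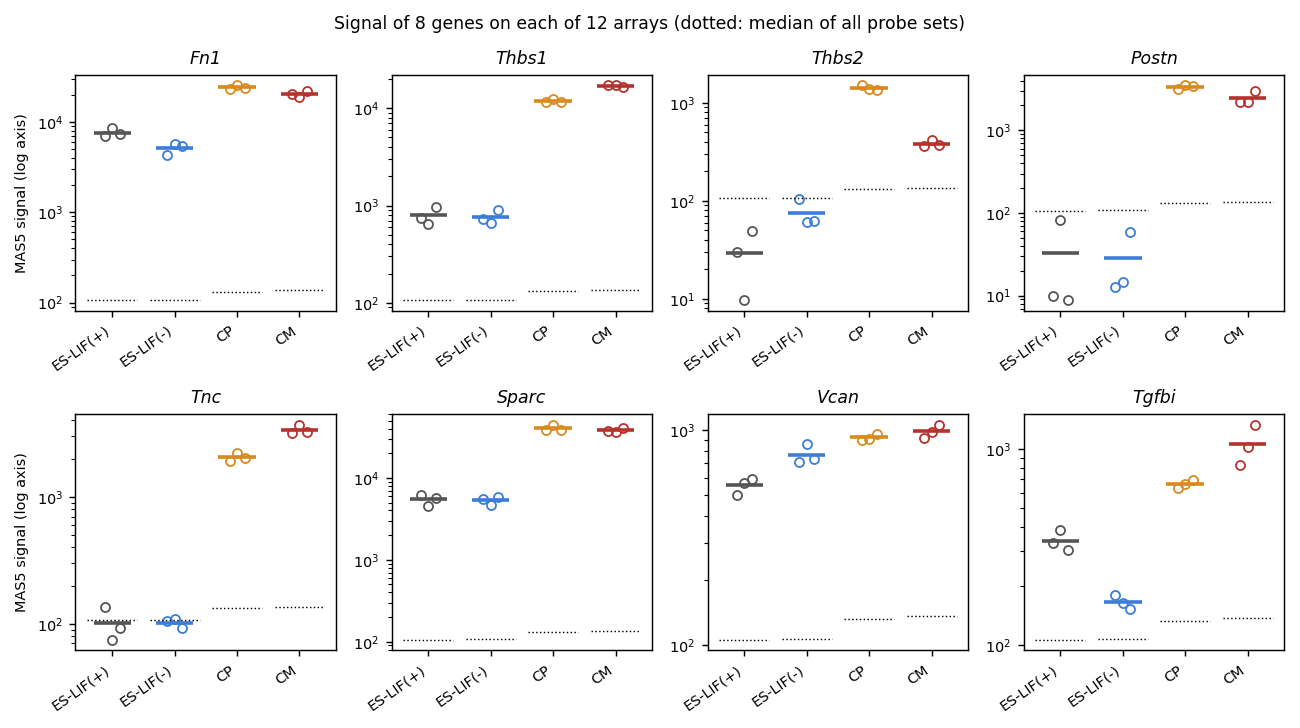
MAS5 signal (log axis) of each gene's brightest probe set on the 3 arrays of ES-LIF(+), ES-LIF(-), CP and CM, with circles for arrays, bars for stage means and dotted lines for the mean of the array medians. Postn and Thbs2 lie below the dotted line on every array of both stem cell stages, whereas Fn1 and Sparc lie far above it on all 12 arrays.

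Fn1 (probe set 1426642_at) was well above the array median at every stage and higher in CP and CM. Its signal was 6936, 8550 and 7378 on the ES-LIF(+) arrays, 4265, 5675 and 5369 on the ES-LIF(-) arrays, 23301, 25379 and 23642 on the CP arrays and 20457, 18841 and 22055 on the CM arrays. The lowest CM array read above the highest stem cell array by a wide margin, and neither the stem cell stages nor CP and CM overlapped with each other. Relative to ES-LIF(+), Fn1 was 3.17-fold higher in CP (log2 difference 1.66, SE 0.10, adjusted p = 1.01e-08) and 2.68-fold higher in CM (1.42, SE 0.10, adjusted p = 1.63e-08). In ES-LIF(-) its difference from ES-LIF(+) was -0.58 (SE 0.10, adjusted p = 0.00181), which lies just inside the 1.5-fold limit and was therefore not called. Without ES-LIF(-) replicate 2 or 3, or without ES-LIF(+) replicate 1 or 3, the difference passed the limit, and over all arrays left out in turn it ranged from -0.66 to -0.46. CM differed from CP by -0.24 (adjusted p = 0.0954), which was not called.

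The second Fn1 probe set (1437218_at) gave another result. It averaged 549 ± 64.5 in CP and 473 ± 46.0 in CM, against 419 ± 38.6 in ES-LIF(+) (SD, n = 3 each), and neither CP (0.37, adjusted p = 0.0763) nor CM (0.17, adjusted p = 0.396) was called. It was, however, called lower in ES-LIF(-), at 210 ± 52.3 (-0.97, adjusted p = 0.00132). Of the 2 probe sets, the brightest alone was called in CP and CM against ES-LIF(+), and the other alone in ES-LIF(-) against ES-LIF(+). Against ES-LIF(-), both probe sets were called higher in CP and CM. The differences there were 1.34 in CP (adjusted p = 9.37e-06) and 1.13 in CM (adjusted p = 2.53e-05) for 1437218_at, and 2.25 and 2.01 for the brightest.

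Thbs1 and Thbs2 encode thrombospondins, secreted glycoproteins that bind the receptors CD36 and CD47 and restrain blood vessel growth, and the product of Thbs1 also activates latent TGFβ. Thbs1 (1460302_at) read 751, 653 and 965 on the ES-LIF(+) arrays, 727, 662 and 903 on the ES-LIF(-) arrays, 11637, 12366 and 11498 on the CP arrays and 17183, 17146 and 16555 on the CM arrays. The stem cell stages overlapped with each other, and every CM array was above every CP array. Thbs1 was 14.9-fold higher in CP (3.90, SE 0.12, adjusted p = 7.54e-12) and 21.3-fold higher in CM (4.42, SE 0.12, adjusted p = 7.74e-13) than in ES-LIF(+). LIF removal was accompanied by a difference of -0.04 (adjusted p = 0.890). CM exceeded CP by 0.52 (SE 0.12, adjusted p = 0.00480), under the 1.5-fold limit. In the second Thbs1 probe set (1450377_at) that difference was 0.78 (adjusted p = 3.17e-05) and was called, and its differences from ES-LIF(+), 3.92 in CP and 4.70 in CM, were close to those of the first.

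Thbs2 (1422571_at) followed another course. It read 30.4, 9.7 and 49.2 on the ES-LIF(+) arrays, 104, 61.2 and 62.8 on the ES-LIF(-) arrays, 1516, 1398 and 1359 on the CP arrays and 362, 419 and 373 on the CM arrays. The CP arrays stood apart as the highest, the CM arrays lay between them and the stem cells, and no stages overlapped. Thbs2 was 33.7-fold higher in CP (5.08, SE 0.28, adjusted p = 2.74e-09) and 9.37-fold higher in CM (3.23, SE 0.28, adjusted p = 1.20e-07) than in ES-LIF(+). These folds depend on the pseudocount because both stem cell stages read below the array median, and with a pseudocount of 1 or 64 the log2 difference was 5.79 or 4.01 in CP and 3.91 or 2.28 in CM. The other Thbs2 probe sets gave smaller differences from ES-LIF(+). In 1450663_at they were 2.75 in CP (adjusted p = 4.01e-05) and 1.43 in CM (adjusted p = 0.00526), both called, and in 1447862_x_at 2.63 in CP (adjusted p = 0.000284), which was called, and 0.86 in CM (adjusted p = 0.124), which was not.

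In CM, Thbs2 fell to a mean of 385 ± 30.3, against 1424 ± 81.7 in CP (SD, n = 3 each), a log2 difference of -1.85 (SE 0.28, adjusted p = 0.000149). Both remaining Thbs2 probe sets were also called lower in CM than in CP, by -1.32 (1450663_at, adjusted p = 0.0177) and -1.77 (1447862_x_at, adjusted p = 0.00882). The corresponding values of the paralog Thbs1 were 0.52 and 0.78. Thbs2 in ES-LIF(-) was called higher than in ES-LIF(+) (1.08, SE 0.28, adjusted p = 0.0220), between signals that all lie below the array median. That call was lost without ES-LIF(-) replicate 1 (0.87) or ES-LIF(+) replicate 2 (0.71), and the other probe sets gave 0.16 (adjusted p = 0.855) and -0.18 (adjusted p = 0.867).

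Postn and Tgfbi encode the fasciclin domain proteins periostin and TGFβ-induced protein, which bind integrins and collagen and are both known as TGFβ-induced genes; periostin marks valve and scar-forming fibroblasts in the heart. Postn (1423606_at, its only probe set) read 9.8, 81.2 and 8.8 on the ES-LIF(+) arrays, 12.9, 14.8 and 58.9 on the ES-LIF(-) arrays, 3137, 3507 and 3439 on the CP arrays and 2212, 2181 and 3015 on the CM arrays. All stem cell arrays were below the array median and overlapped with each other, and every CP array was above every CM array. The difference from ES-LIF(+) was the largest of the 8 genes in both stages, 6.41 in CP (SE 0.44, adjusted p = 2.51e-08) and 5.95 in CM (SE 0.44, adjusted p = 1.73e-08). With a pseudocount of 1 or 64 these became 7.35 or 5.22 in CP and 6.89 or 4.77 in CM. CM and CP differed by -0.46 (SE 0.44, adjusted p = 0.475), and ES-LIF(-) and ES-LIF(+) by 0.03 (adjusted p = 0.977).

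Tgfbi (1448123_s_at) was the gene called lower after LIF removal. It read 330, 384 and 306 on the ES-LIF(+) arrays, 180, 163 and 151 on the ES-LIF(-) arrays, 636, 664 and 699 on the CP arrays and 834, 1032 and 1336 on the CM arrays. The 4 stages did not overlap, and the CM arrays were the most widely spread. On the same CM arrays, in the same order, the other Tgfbi probe sets read 765, 556 and 789 (1437463_x_at), 754, 620 and 1002 (1456250_x_at) and 292, 369 and 635 (1415871_at). Only the last of these rose at each step. The yolk sac marker Ttr read 253, 669 and 1726 on these arrays and the embryonic globin gene Hbb-bh1 472, 1735 and 8575. The yolk sac markers Afp and Apoa1 did not pass the filter on low signals. The part of such cells in the spread of Tgfbi was not tested. Tgfbi was 1.97-fold lower in ES-LIF(-) than in ES-LIF(+) (-0.98, SE 0.16, adjusted p = 0.000869), 1.92-fold higher in CP (0.94, SE 0.16, adjusted p = 0.000173) and 3.001-fold higher in CM (1.59, SE 0.16, adjusted p = 4.72e-07). All 3 other Tgfbi probe sets were also called lower in ES-LIF(-), by -1.05, -1.37 and -0.94, and all 3 were called higher in CM than in ES-LIF(+). In CP, 2 of the 3 were called higher (0.95 and 1.47) and 1 was not (0.48, adjusted p = 0.115).

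CM exceeded CP in Tgfbi by 0.64 (SE 0.16, adjusted p = 0.00574). Without CM replicate 3, the brightest array, the difference was 0.47 and was no longer called. With the mean over each gene's probe sets, Tgfbi was not called (0.39) and Thbs1 was called (0.65), so that the number called higher in CM stayed 2 with another gene in it. Of the other probe sets, 1 was called higher in CM than in CP (0.70, adjusted p = 0.0377), and 2 were not (0.33 and -0.10).

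Tnc encodes tenascin-C, an anti-adhesive hexameric glycoprotein that binds fibronectin and appears at sites of tissue remodelling. Tnc (1416342_at) read 136, 75.1 and 92.8 on the ES-LIF(+) arrays, 105, 109 and 92.6 on the ES-LIF(-) arrays, 1926, 2222 and 2017 on the CP arrays and 3211, 3708 and 3243 on the CM arrays. The stem cell stages overlapped, and every CM array was above every CP array. Tnc was 18.0-fold higher in CP (4.17, SE 0.16, adjusted p = 4.05e-11) and 29.6-fold higher in CM (4.89, SE 0.16, adjusted p = 3.39e-12) than in ES-LIF(+). It was called higher in CM than in CP (0.72, SE 0.16, adjusted p = 0.00287), and its difference without LIF was 0.04 (adjusted p = 0.913). The second Tnc probe set (1456344_at) was below the array median on all 12 arrays and was not tested, and it averaged 41.8 ± 9.17 in CM and 6.33 ± 1.50 in CP, against 7.30 ± 7.45 in ES-LIF(+).

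Sparc encodes osteonectin, a collagen-binding protein that assists the deposition of collagen fibrils. Sparc (1416589_at) read 6156, 4600 and 5642 on the ES-LIF(+) arrays, 5478, 4623 and 5798 on the ES-LIF(-) arrays, 38886, 44733 and 37961 on the CP arrays and 37313, 36467 and 40300 on the CM arrays. Its 12 arrays fell into 2 levels, with overlap between the stem cell stages and between CM and CP. Sparc lay near the top of the signal range. On CM replicate 2 it was the brightest probe set kept, and on CP replicate 2 it stood against a highest signal of 61702. Whether a ceiling of the signal limits its differences was not tested. Sparc was 7.43-fold higher in CP (2.89, SE 0.11, adjusted p = 3.08e-11) and 6.98-fold higher in CM (2.80, SE 0.11, adjusted p = 1.86e-11) than in ES-LIF(+). The difference of CM from CP was -0.09 (adjusted p = 0.582) and that of ES-LIF(-) from ES-LIF(+) -0.04 (adjusted p = 0.872). A second bright Sparc probe set (1448392_at) gave 2.78 in CP and 2.60 in CM, whereas another (1458204_at) was not called in either (0.13, adjusted p = 0.699, and -0.03, adjusted p = 0.919).

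Vcan encodes versican, a large hyaluronan-binding proteoglycan needed for the cushions and the looping of the embryonic heart. Vcan (1427256_at) read 499, 570 and 594 on the ES-LIF(+) arrays, 712, 859 and 735 on the ES-LIF(-) arrays, 900, 907 and 962 on the CP arrays and 921, 981 and 1059 on the CM arrays. The arrays without LIF lay between those of ES-LIF(+) and those of CP, with no overlap, while CM and CP overlapped. By the brightest probe sets, the change was the smallest of the 8 genes, 1.65-fold in CP (0.72, SE 0.11, adjusted p = 5.18e-05) and 1.76-fold in CM (0.82, SE 0.11, adjusted p = 7.66e-06) over ES-LIF(+). With each array centred on its median these differences were 0.44 and 0.50 and neither was called. ES-LIF(-) exceeded ES-LIF(+) by 0.46 (SE 0.11, adjusted p = 0.0101), which was under the 1.5-fold limit. Relative to ES-LIF(-), the difference was 0.26 in CP (adjusted p = 0.0519) and 0.36 in CM (adjusted p = 0.00866), and neither was called.

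The probe sets of Vcan disagreed. In the brightest one CM and CP differed by 0.09 (adjusted p = 0.550), but 1421694_a_at was called higher in CM than in CP by 0.61 (adjusted p = 0.00460), with means of 934 ± 83.9 in CM and 608 ± 71.7 in CP. Another, 1427257_at, was called higher in CM by 1.36 (adjusted p = 0.00525), at 512 ± 37.5 in CM and 196 ± 61.9 in CP, and was not called between CP and ES-LIF(+) (0.17, adjusted p = 0.703). Over ES-LIF(+), 1427257_at was called higher in CM (1.52, adjusted p = 0.000927). The differences of 1421694_a_at from ES-LIF(+) were larger than those of the brightest probe set, 1.16 in CP (adjusted p = 1.19e-05) and 1.77 in CM (adjusted p = 5.73e-08), both called. They also disagreed against ES-LIF(-), where 1421694_a_at was called higher in CP (0.86, adjusted p = 0.000166) and in CM (1.47, adjusted p = 4.20e-07), and 1427257_at was called higher in CM (1.36, adjusted p = 0.00224) but not in CP (0.0024, adjusted p = 0.996). The other 5 Vcan probe sets were below the array median on all 12 arrays and were not tested. Versican is known to be spliced into isoforms, and which isoforms these probe sets read is not given in the sources used here.

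**Figure D2:**
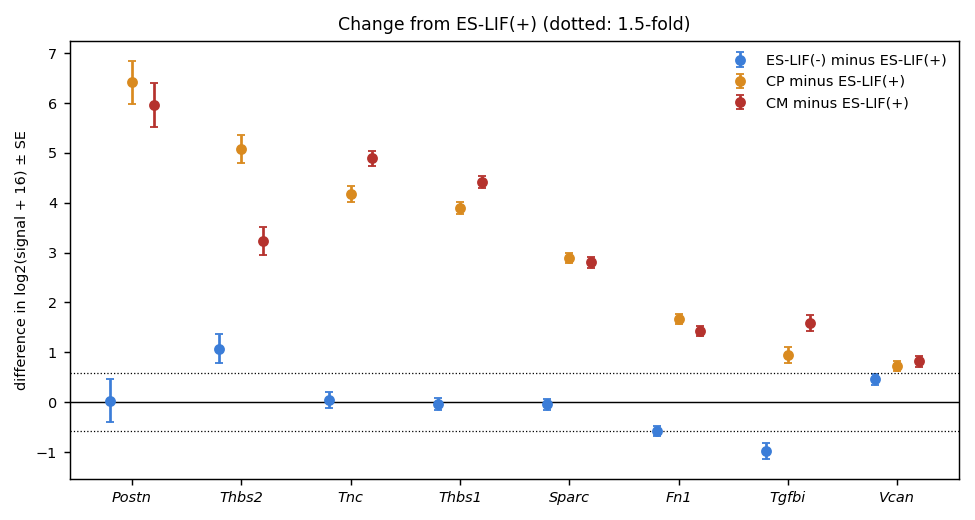
Difference from ES-LIF(+) in log2(signal + 16) ± SE for ES-LIF(-), CP and CM, by gene, with dotted lines at 1.5-fold. The CP and CM points lie above the upper line for all 8 genes, between 0.72 (Vcan) and 6.41 (Postn) in CP, while the ES-LIF(-) points lie between the lines except for Thbs2 above and Tgfbi below them.

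By stage order, the neighbours that were called differed among the genes. Fn1, Postn, Sparc and Thbs1 had a single called step, between the stem cell stages and the CP and CM stages. Tnc had an additional called step of CM over CP. Thbs2 and Tgfbi had a called step between every pair of neighbours, with the highest stage CP for Thbs2 and CM for Tgfbi, and the lowest stage ES-LIF(+) for Thbs2 and ES-LIF(-) for Tgfbi. Vcan had none, since its neighbours in the order ES-LIF(+), ES-LIF(-), CP and CM each differed by less than 1.5-fold.

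**Figure D3:**
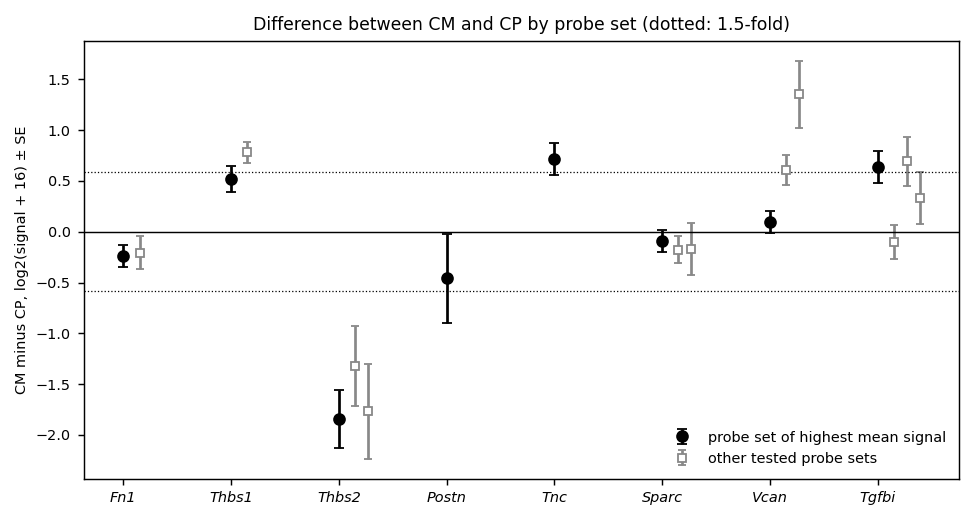
CM minus CP in log2(signal + 16) ± SE for each tested probe set of the 8 genes, with filled circles for the brightest probe set, open squares for the others and dotted lines at 1.5-fold. All 3 Thbs2 probe sets lie below the lower line, both Thbs1 probe sets lie above 0, and the probe sets of Vcan spread between 0.09 and 1.36.

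Of the 6 measured genes with a promoter window at hand, Postn, Thbs2 and Tnc were the 3 in which the letters TATAAA, the core of the TATA box, were found. RefSeq windows on GRCm38.p6, 250 bases before to 50 after a start site, were held for 7 of the 9 genes (10 windows), and Fn1 and Thbs1 were not among them. Searched on both strands, TATAAA occurred in 5 of the 10 windows, against 13.6% of 32851 windows of all genes. These 5 include 1 window of Spp1 and both windows of Tnc, which overlap and hold the same match. The difference from the share of all windows was not tested. The windows that hold the match are shown for these 3 genes, with TATAAA in capitals. They lie at chr3:54360857-54361156 (plus strand, Postn), chr17:14694213-14694512 (minus strand, Thbs2) and chr4:64046966-64047265 (minus strand, Tnc), and each is written along its gene.
Postn: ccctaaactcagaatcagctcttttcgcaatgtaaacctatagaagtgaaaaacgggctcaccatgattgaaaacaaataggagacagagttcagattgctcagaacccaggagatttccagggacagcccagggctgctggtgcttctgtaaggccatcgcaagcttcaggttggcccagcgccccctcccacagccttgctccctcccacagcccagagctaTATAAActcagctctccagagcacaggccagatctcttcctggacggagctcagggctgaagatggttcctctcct
Thbs2: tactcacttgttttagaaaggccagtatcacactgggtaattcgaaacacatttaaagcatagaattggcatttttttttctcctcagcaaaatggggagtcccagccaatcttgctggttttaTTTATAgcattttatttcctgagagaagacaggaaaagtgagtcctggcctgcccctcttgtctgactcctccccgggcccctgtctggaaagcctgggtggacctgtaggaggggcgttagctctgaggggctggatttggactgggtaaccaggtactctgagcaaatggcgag
Tnc: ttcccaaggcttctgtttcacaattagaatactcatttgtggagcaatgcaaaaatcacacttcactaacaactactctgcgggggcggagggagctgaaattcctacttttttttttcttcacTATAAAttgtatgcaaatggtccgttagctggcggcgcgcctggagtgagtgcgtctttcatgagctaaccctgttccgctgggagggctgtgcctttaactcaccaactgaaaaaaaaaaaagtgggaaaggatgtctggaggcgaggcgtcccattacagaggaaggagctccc

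The match in Postn starts 26 bases before the start site, the usual place of a TATA box. Those in the Thbs2 and Tnc windows shown start 126 bases before it, the Thbs2 match being on the opposite strand and printed as TTTATA. A second Tnc window, with its start site further downstream, holds the same Tnc match, 205 bases before that site. Nearer to its start site this second window also reads TATATAAG, which a search for the exact letters TATAAA does not match. Other TATA-like letters were not searched for in any window. The windows of Sparc, Vcan and Tgfbi held no TATAAA, nor did the other windows of Postn and Spp1. The AP-1 letters TGANTCA (7.81% of all windows), the TEAD letters CATTCC (14.7%) and the CArG box (1.63%) were found in 0 of the 10 windows. A match is a description of the letters, and its use in these cells was not measured.

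Each gene's course over the 12 arrays was set beside those of 13166 other genes by the root mean square difference of mean-centred log2(signal + 16) values. Nearest to Fn1 were Atp11a (0.17) and Urgcp (0.19), and nearest to Thbs1 were Cd44 (0.18), a hyaluronan receptor, and Lyz1 (0.19). Thbs2 was nearest to Pla2g4a (0.43) and Mfap4 (0.54), and Postn to Bgn (0.55) and Fbln2 (0.58), which encode the matrix proteins biglycan and fibulin-2. For both genes the distances were larger than for the rest, and so were the standard errors of their differences, 0.28 and 0.44. Tnc was nearest to the collagen IV chain gene Col4a2 (0.21) and Nrp1 (0.24), Sparc to Lsp1 (0.15) and Ier3 (0.18), Vcan to Rtn3 (0.08) and Marcks (0.10), and Tgfbi to Mfge8 (0.23) and Sh3pxd2a (0.25). Among the 8 genes, the closest pairs were Thbs1 with Tnc (0.29) and Fn1 with Tgfbi (0.39), and the farthest was Postn with Vcan (2.88). Thbs1 and Thbs2 stood 1.002 apart.

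Relatives and partners were read from a list of 63 genes, of which 47 were tested. In CP, 31 were called higher and 1 lower than in ES-LIF(+) (median difference 1.27), and in CM 35 higher and 0 lower (median 1.97), with shared ES-LIF(+) arrays. These counts include genes that passed the filter only through CP or CM arrays, such as Sparcl1, Smoc2 and Tgfb3, and are a description. Between CM and CP, 16 were called higher and 4 lower in CM. In ES-LIF(-), 7 were called higher and 3 lower than in ES-LIF(+). Over all tested probe sets, the shares called higher and lower were 19.3% and 11.6% in CP against ES-LIF(+), 26.2% and 21.6% in CM against ES-LIF(+), 8.7% and 9.47% in CM against CP, and 3.19% and 3.77% in ES-LIF(-) against ES-LIF(+).

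Close paralogs of the 8 genes gave mixed results. Thbs4, a thrombospondin of muscle and tendon, averaged 12.1 ± 3.67 in CP and 286 ± 41.6 in CM, against 55.6 ± 16.4 in ES-LIF(+) (SD, n = 3 each). It was thus called lower in CP (-1.34, adjusted p = 0.00166), between signals under the array median, and higher in CM (2.09, adjusted p = 1.81e-05). Thbs3 was called higher in CP (0.88, adjusted p = 0.000269) but not in CM (-0.12, adjusted p = 0.538). None of the 3 other tenascins (Tnr, Tnxb and Tnn) and none of the 4 other SIBLING genes, the family of osteopontin, passed the filter on low signals.

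Among the 7 other genes of the SPARC family, 5 were tested and 3 were called higher in both CP and CM. Sparcl1, also called hevin, differed by 3.19 in CP (adjusted p = 5.74e-07) and 4.01 in CM (adjusted p = 1.65e-08), and the matrix protein gene Smoc2 by 1.96 (adjusted p = 8.50e-05) and 4.18 (adjusted p = 1.50e-08). Sparcl1 and Smoc2 were under the array median on every ES-LIF(+) and ES-LIF(-) array, so they entered the tests through CP and CM. Their calls are a description, and their folds depend on the pseudocount. Both were called higher in CM than in CP as well (0.83 for Sparcl1 and 2.22 for Smoc2). Of 5 tested lecticans and hyaluronan partners, 1 was called higher in CP (19.3% of all probe sets) and 2 in CM (26.2%). Has2, the hyaluronan synthase of the heart cushions, differed from ES-LIF(+) by 1.31 in ES-LIF(-), 1.63 in CP and 1.83 in CM, each called. Ncan, the neural relative of versican, differed by 2.04 in CM (adjusted p = 3.13e-08) and by -0.09 in CP (adjusted p = 0.663).

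All 5 tested genes of the CCN family, matricellular regulators of growth factor signalling, were called higher in CP and in CM. Of all tested probe sets, 19.3% were called higher in CP and 26.2% in CM than in ES-LIF(+). Ccn4 differed by 4.32 in CP (adjusted p = 1.22e-06) and 4.74 in CM (adjusted p = 1.61e-07), and Ccn1 by 2.98 (adjusted p = 6.53e-11) and 3.44 (adjusted p = 7.08e-12). Of 16 tested receptors, 12 were called higher in CP and 14 in CM, with 0 lower. Cd44 had the largest receptor difference, 4.07 in CP (adjusted p = 3.53e-11) and 4.49 in CM (adjusted p = 5.46e-12), and the integrin chain Itga4, part of a fibronectin receptor, differed by 1.81 (adjusted p = 0.00209) and 3.26 (adjusted p = 5.77e-06). Of the 12 proteases and TGFβ genes, 9 were called higher in CP and 10 in CM. Tgfb3 differed by 4.05 in CP (adjusted p = 3.54e-07) and 4.54 in CM (adjusted p = 3.43e-08), and Tgm2, a transglutaminase that crosslinks fibronectin, by 1.82 (adjusted p = 3.92e-09) and 4.81 (adjusted p = 5.51e-14). Tgfb3 was under the array median on every ES-LIF(+) and ES-LIF(-) array, and Itga4 on every ES-LIF(+) array. The calls of both are likewise a description. The counts of the CCN, receptor and protease groups include further genes that entered the tests through CP or CM arrays, and are a description too.

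**Figure D4:**
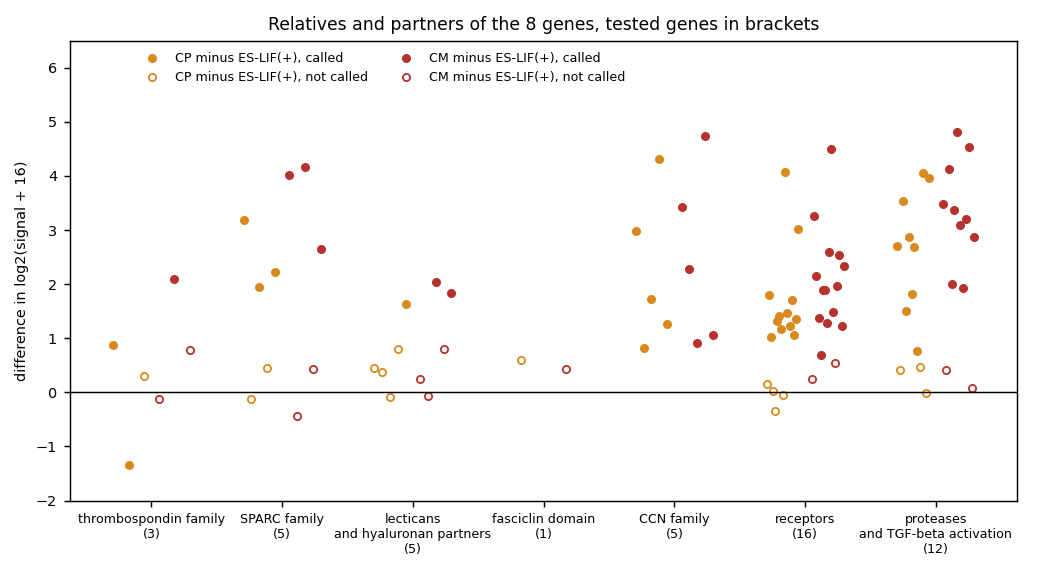
Difference from ES-LIF(+) in log2(signal + 16) for the tested relatives and partners by role, with CP on the left and CM on the right of each role, filled where called and open where not. All 5 CCN genes are filled in both stages, and the only filled point below 0 is Thbs4 in CP (-1.34).

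Markers of several other cell types moved with the 8 genes, and those of some did not. Over all tested probe sets, 19.3% were called higher and 11.6% lower in CP than in ES-LIF(+). The shares were 26.2% and 21.6% in CM against ES-LIF(+), and 8.7% and 9.47% in CM against CP. All 7 fibroblast genes of the list (Col1a1, Col1a2, Col3a1, Dcn, Lum, Pdgfra and Thy1) were called higher in CP and in CM, with a summed signal of 90917 to 97323 in CP and 47938 to 48188 in CM, against 1050 to 1503 in ES-LIF(+). Between CM and CP 5 of the 7 were called lower in CM and 0 higher, which is the direction of Thbs2. Of the 4 mesothelium genes, 3 were called higher in CP and 3 in CM (summed signal 7919 to 8011 in CP and 2779 to 3384 in CM, against 532 to 745 in ES-LIF(+)). Of the 5 smooth muscle genes, 4 were called higher in CP and 5 in CM, and their summed signal ran the other way, 59595 to 68658 in CM, against 29710 to 34012 in CP, which is the direction of Tnc and Tgfbi. For primitive endoderm, another source of matrix, 4 of 5 tested genes were called higher in CP and 4 in CM (with 1, Lama1, lower in CM), and the yolk sac markers Afp and Apoa1 did not pass the filter on low signals. Ttr, another gene of that list, was called higher in CM (883 ± 760 in CM, against 18.2 ± 7.67 in ES-LIF(+), SD, n = 3 each, log2 difference 4.35) and was not called in CP (0.10). For macrophages, known producers of several matricellular proteins, Ptprc and Itgam did not pass the filter either, and 2 of 5 tested genes were called higher in CP and 3 in CM. Of 5 tested endothelium genes, 2 were called higher and 2 lower in CP, and 3 higher and 2 lower in CM. Of 3 tested erythroid genes, 0 were called in CP and 2 were called higher in CM. Of 4 tested bone and cartilage genes, 2 were called higher and 0 lower in CP, and 2 higher and 1 lower in CM. The part of these markers in the differences of the 8 genes was not tested, and in RNA from many cells at once a smaller share of cells of a type and less RNA per cell cannot be told apart.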

How the data were processed

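RNA of 12 cultures, 3 for each of ES-LIF(+), ES-LIF(-), CP and CM, was read on Affymetrix mouse genome arrays. The deposited values are signal intensities on a linear scale, made by the authors with MAS5 and scaled array by array. No detection flags were used here. After 64 control probe sets were left out, 45037 remained, and the annotation of the platform gives 1 gene symbol for 34945, several for 932 and none for 9160. A probe set named with a second gene was not used for a member.

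Signals were taken to log2(signal + 16). A probe set was tested when it exceeded the median of its own array on at least 3 of 12 arrays (26083 probe sets). All 12 arrays were fitted together with limma 3.58.1 under R 4.3.3, with stage as the only factor, an intensity trend and Benjamini-Hochberg adjustment over all tested probe sets, and calls required an adjusted p under 0.05 and a change above 1.5-fold. All adjusted p-values are from limma. The fit was tested on simulated data. P-values rest on the spread between arrays within stages, pooled over the 4 stages and moderated by limma with all tested probe sets. They do not measure the spread of any single stage.

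The 8 genes and all lists were chosen with earlier results of these data known. The rule for named genes took every member, the 2 other genes nearest to each member, and, of each role group of relatives, the 2 called genes with the largest difference in CP or CM from ES-LIF(+). Genes of marker lists were named as a check or beside a result that moves with them. The motifs and the windows shown were chosen after values were seen. Promoters were from RefSeq (GRCm38.p6), searched as exact letters on both strands.

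Alternatives covered array scaling, pseudocounts of 1 and 64, the filter, the trend, the unmoderated one-way analysis of the methods, the arrays in the fit, a replicate block, which probe set stands for a gene, fold changes as plain ratios of mean signals, the fold threshold and each array left out in turn.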

Additional observations from a re-analysis of the deposited data

How the results depend on the processing

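In CP and CM against ES-LIF(+) or ES-LIF(-), no alternative turned a called member's direction, and leaving out any array changed no call of a member. Median centring of each array lowered the median difference of all probe sets in CP against ES-LIF(+) to -0.20, against 0.09 without it, and 7 of the 8 genes stayed called in CP and in CM (Vcan was lost). The mean over probe sets lost Vcan in CP against ES-LIF(+) (0.58), and a fold above 2 lost Vcan (0.72) and Tgfbi (0.94) in CP and Vcan (0.82) in CM against ES-LIF(+). Median centring lowered the share of calls that were higher to 33.5% in CP against ES-LIF(+) (62.5% without centring) and 35.6% in CM against ES-LIF(+) (54.8%). Against ES-LIF(-), centring lowered that share to 35.8% in CP (61.5%) and 36.3% in CM (54.6%). Quantile normalization gave 47.7%, 44.6%, 48.3% and 44.5% in the same order. Called probe sets in CP against ES-LIF(+) were 3188 higher and 6330 lower with centring (5036 and 3025 without), and 8443 were lower in CM against ES-LIF(+) (5625) and 6462 in CP against ES-LIF(-) (3322). With no fold threshold the lower calls were 5619 in CP against ES-LIF(+) and 5935 in CP against ES-LIF(-), with 1578 higher and 1579 lower in ES-LIF(-) against ES-LIF(+) (833 and 984 with it) and 3521 higher and 5014 lower in CM against CP (2268 and 2469). With a fold above 2 there were 2992 higher and 879 lower in CP against ES-LIF(+), 3254 higher (5309 at 1.5-fold) and 1023 lower in CP against ES-LIF(-), 288 higher and 437 lower in ES-LIF(-) against ES-LIF(+) and 1241 higher and 887 lower in CM against CP, and CM had 3001 lower against ES-LIF(+) and 2995 lower against ES-LIF(-) (5667 at 1.5-fold). In ES-LIF(-) against ES-LIF(+), members called lower were 2 in place of 1 with median centring, quantile normalization, the mean over probe sets or no fold threshold, and 0 with a fold above 2. Members called higher were 0 in place of 1 with the unmoderated analysis, with the probe set of highest mean log2 value, with the mean over probe sets or with only the arrays compared, and 2 with no fold threshold. Leaving out each array gave 0 to 1 higher and 1 to 2 lower, and 1 to 2 higher in CM against CP, where a fold above 2 gave 0. Uncalled differences changed sign for Vcan in CP against ES-LIF(-) with median centring (-0.0067, against 0.26), for Fn1 (0.018, against -0.24) and Sparc (0.18, against -0.09) in CM against CP with quantile normalization, and in ES-LIF(-) against ES-LIF(+) for Postn with a pseudocount of 64 (-0.022, against 0.03) or as the ratio of mean signals (-0.20) and for Tnc with the mean over probe sets (-0.12, against 0.04). With each array left out, ES-LIF(-) against ES-LIF(+) ranged from -0.17 to 0.11 for Thbs1, from -0.41 to 0.68 for Postn, from -0.12 to 0.25 for Tnc and from -0.16 to 0.055 for Sparc. The causes of these changes were not tested. Replicate numbers did not pair the arrays: over 18 pairs of same-numbered arrays of different stages the correlation of deviations ran from -0.05 to 0.10, none above 0.1, and 4 of 12 arrays correlated best with their own number. With the replicate block the members called stayed 8 in CP and 8 in CM against ES-LIF(+), with no count of called members changed. The check and the block rest on the replicate numbers of the sample titles, and other groupings of the arrays were not tested. Signals near or under the array median, as of Postn and Thbs2 in both stem cell stages, limit the precision of folds most.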

Other observations

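A probe set that the annotation gives to both Thbs1 and Pald1 (1421811_at), and that was therefore kept out of the counts, differed from ES-LIF(+) by 3.18 in CP (SE 0.17, adjusted p = 2.02e-09) and by 3.56 in CM (SE 0.17, adjusted p = 2.08e-10), and CM from CP by 0.38 (adjusted p = 0.108).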
